A study of Mus musculus with 7 samples.

Results

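The genes of the cytosolic ribosomal proteins were examined for binding of 3 nuclear receptors in mouse liver, namely the retinoic acid receptors α and β (RARα and RARβ) and the retinoid X receptor α (RXRα). Members were all protein-coding genes whose symbol begins with Rpl or Rps followed by a digit, on the mouse build GRCm38. There were 97 such genes among 21536 protein-coding genes that had a start site. A hand-written list divided them into 73 genes of ribosomal subunit proteins, namely 43 of the large subunit and 30 of the small subunit, and 24 genes that the pattern also caught. The latter were 13 paralogs or like genes, 10 kinase or kinase-like genes and 1 gene of a binding protein. The mice were C57BL/6 males aged 3 months on normal food (control) or on food containing retinoic acid (RA). The labels give the feeding as 1 day, but a longer feeding is described in the methods of the study. All carried wild type alleles, no labelled group had a transgene or deletion, and the chromatin came from whole liver, so the cell types of the liver cannot be told apart. Chromatin immunoprecipitation followed by sequencing (ChIP-seq) gave 6 peak lists, 1 for each receptor and diet. Each list came from 1 library, so no difference between lists has a replicate check and no test between diets or receptors could be made. The labels do not say how many animals gave the chromatin of a library. The files hold positions and scores of peaks but no expression, so the tissue could not be checked against marker genes.

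Ribosomal proteins bind ribosomal RNA to form the large subunit, which joins amino acids, and the small subunit, which decodes the messenger RNA. Their genes are highly expressed in nearly all cells, are short, often carry small nucleolar RNAs in their introns and start in a stretch of pyrimidines. RARs are nuclear receptors for RA that bind DNA as heterodimers with RXR, and their response elements are repeats of a core hexamer. RXRα also pairs with receptors for fatty acids, bile acids and oxysterols, and it is abundant in hepatocytes.

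For control and RA, the list of RARα held 35521 and 44296 peaks, that of RARβ 14968 and 29467, and that of RXRα 61128 and 59624. The read totals are not in the peak lists. Totals of uniquely mapped reads are stated in the study for RARα and, lower, for RXRα, but not by diet and not for RARβ. The depth of a single list is therefore not known, and a longer list finds more genes. A gene was counted as bound when the midpoint of a peak lay within 10 kb of a start, and as having a promoter peak when it lay within 1 kb. The score is a multiple (by -10) of the log10 p-value of the peak caller and was not compared between libraries. The score rank used below is the share of the peaks of the same list with a lower score, ties being counted at their middle. Intervals are Wilson 95% intervals on the share of genes, and they cover counting error only.

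The subunit genes were bound at the start by RARα almost without exception. A RARα promoter peak was found at 72 of 73 subunit genes (98.6%, interval 92.6% to 99.8%) under the control diet and at the same number under RA. RARβ had a promoter peak at 62 (84.9%, 75% to 91.4%) and 69 (94.5%, 86.7% to 97.8%), and RXRα at 59 (80.8%, 70.3% to 88.2%) and 66 (90.4%, 81.5% to 95.3%). Of the 30 small subunit genes, 30 and 30 had a RARα promoter peak, 27 and 30 a RARβ promoter peak, and 22 and 28 a RXRα promoter peak under the control diet and RA. The corresponding numbers for the 43 large subunit genes were 42 and 42, 35 and 39, and 37 and 38.

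Over all 97 members, 86 had a RARα promoter peak under the control diet and 87 under RA, where the background over all protein-coding genes was 49.1% and 49.1%. For RARβ, 73 and 78 members had a promoter peak against a background of 35.2% and 42.9%. For RXRα the numbers were 70 and 78, against 42.5% and 44.4%. Thus, in each of the 6 lists the share of members was above the share of all genes. All 6 lists held a promoter peak at 55 of 97 members, and at 49 of 73 subunit genes (67.1%), against a background of 26.5%. Another 15 subunit genes had a promoter peak in 5 lists and 7 in 4 lists.

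Within 10 kb of a start, RARα peaks were found at 91 and 92 members under the control diet and RA, with a background of 62.3% and 63.7%. RARβ peaks were found at 79 and 85 members (background 44.5% and 55.2%), and RXRα peaks at 86 and 88 (background 61.8% and 62.3%). The subunit genes accounted for 73 and 73, 65 and 72, and 70 and 71 of these. Beyond 1 kb the assignment was less specific. In the RARα control list, 67 peaks lay 1 to 10 kb from a member, and 31 of them had the start of another gene nearer. Within 1 kb this held for 6 of 88 peaks. The largest such share of any list beyond 1 kb was 18 of 30 peaks, for RARβ under the control diet. Within 1 kb the largest was 11 of 91, for RARα under RA.

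**Figure D1:**
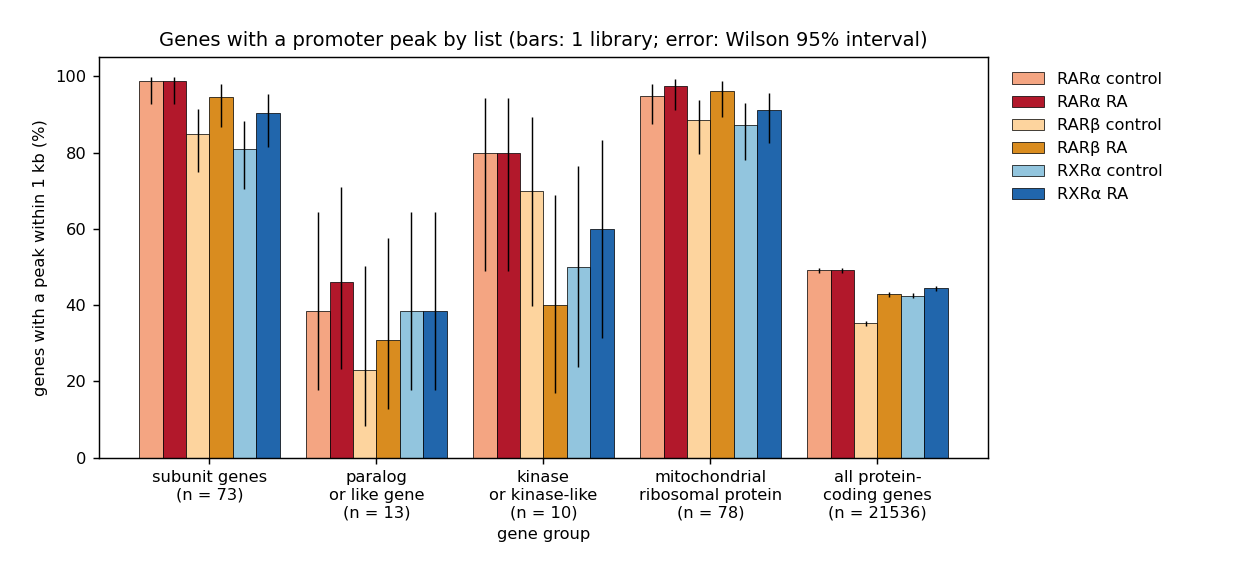
Percentage of genes with a peak midpoint within 1 kb of a start (vertical axis, from 0) in 5 gene groups, with 1 bar per peak list and Wilson 95% intervals as error bars. The bars of the 73 subunit genes reach from 80.8% to 98.6%, close to those of the 78 mitochondrial ribosomal protein genes, and the bars of all 21536 genes lie between 35.2% and 49.1%.

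The high share was not particular to the cytosolic ribosome by these counts. Of 78 mitochondrial ribosomal protein genes, 74 and 76 had a RARα promoter peak under the control diet and RA, 69 and 75 a RARβ promoter peak, and 68 and 71 a RXRα promoter peak. The 28 genes of a hand-written list of translation factors all had a RARα promoter peak under both diets. Among them are factors that deliver transfer RNA or place the ribosome on the messenger RNA. For the 28 genes RARβ gave 24 and 28 and RXRα 25 and 25. Among 25 genes of ribosome assembly, such as nucleolar proteins and factors of RNA polymerase I, the numbers were 24 and 25 for RARα, 19 and 23 for RARβ, and 24 and 22 for RXRα. All 6 lists held a promoter peak at 73.1% of the mitochondrial group, 78.6% of the translation factors and 72.0% of the assembly genes. The subunit genes, with 67.1%, were below each of these. The groups are small and no interval is given for these shares, so the order is not read as a difference.

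RAR peaks and RXRα peaks at the subunit genes differed in where they stood in their lists. The best RARα promoter peak had a median score rank of 90.6% over 72 subunit genes under the control diet and 93.5% under RA, against 80.1% and 78.6% over all genes with such a peak. For RARβ the medians were 80.8% and 80.0%, against 69.7% and 69.9%. For RXRα they were 41.6% and 45.5%, below the medians over all genes of 51.7% and 54.3%. The translation factors had RARα medians of 90.7% and 87.9% and RXRα medians of 58.9% and 63.0%. For the assembly genes these were 82.7% and 76.2%, and 34.9% and 49.0%. For the mitochondrial group they were 85.5% and 82.5%, and 51.5% and 58.6%. The assembly genes were thus also below all genes for RXRα under both diets. At the 59 subunit genes with promoter peaks of both receptors under the control diet, RARα had the higher score rank at 56 (94.9%), and under RA at 63 of 66 (95.5%). Over all genes with both peaks these shares were 81.4% and 79.9%. RARβ ranked above RXRα at 48 of 53 and 56 of 65 subunit genes. As a rank is set by the other peaks of the list, these values say nothing of the absolute signal.

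**Figure D2:**
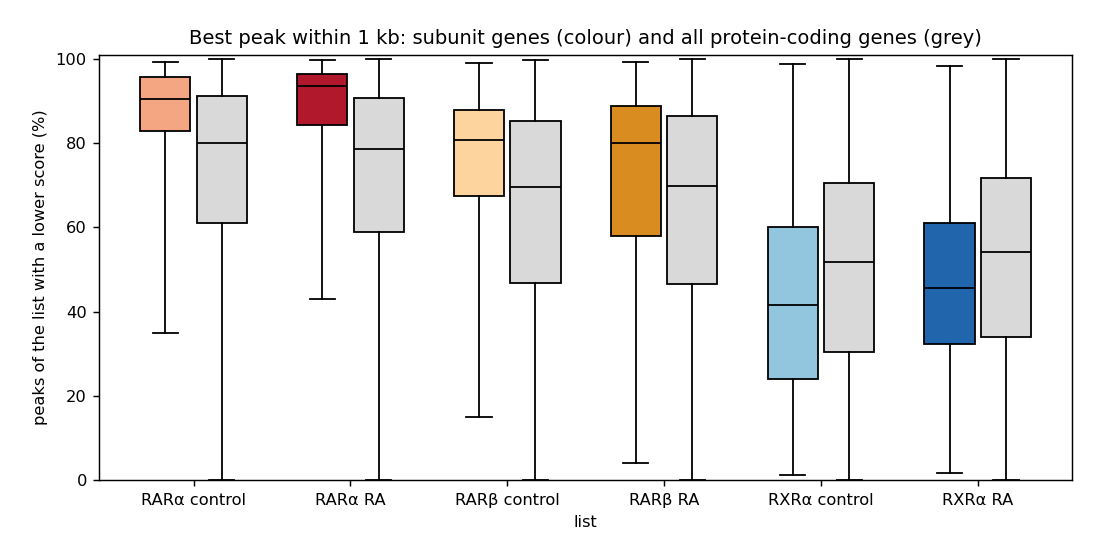
Score rank of the best promoter peak (vertical axis, percentage of the peaks of the list with a lower score) for subunit genes (coloured boxes) and all protein-coding genes (grey boxes) in each list. Boxes are quartiles, the line is the median and whiskers are the lowest and highest values; the coloured medians lie above the grey ones in the 4 RAR lists and below them in both RXRα lists.

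The RXRα counts moved most when the highest scores alone were kept, but these lists were also the longest and lost the most peaks. The RARβ control list was the shortest and lost none, so its counts could not move. When each list was reduced to its 14968 highest-scoring peaks, the length of the shortest list, RARα promoter peaks were left at 79 and 77 members under the control diet and RA (background 38.1% and 33.3%), and at 68 and 68 of 73 subunit genes. RARβ peaks were left at 73 and 66 members (background 35.2% and 31.1%), 62 and 59 of them subunit genes. RXRα peaks were left at 8 and 8 members, with a background of 8.11% and 9.35%. The 6 subunit genes among them under the control diet were Rpl15, Rpl24, Rpl27, Rps19, Rps29 and Rps3a1, and under RA Rpl9 was added. Among the 5000 highest-scoring peaks of each list, RARα marked 51 and 47 subunit genes, RARβ 47 and 31, and RXRα 1 and 2. Over all genes the shares at this length were 18.6% and 14.4% for RARα, 19.0% and 13.2% for RARβ, and 1.92% and 1.95% for RXRα, and the RXRα shares of the subunit genes, 1.37% and 2.74%, were near the latter.

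**Figure D3:**
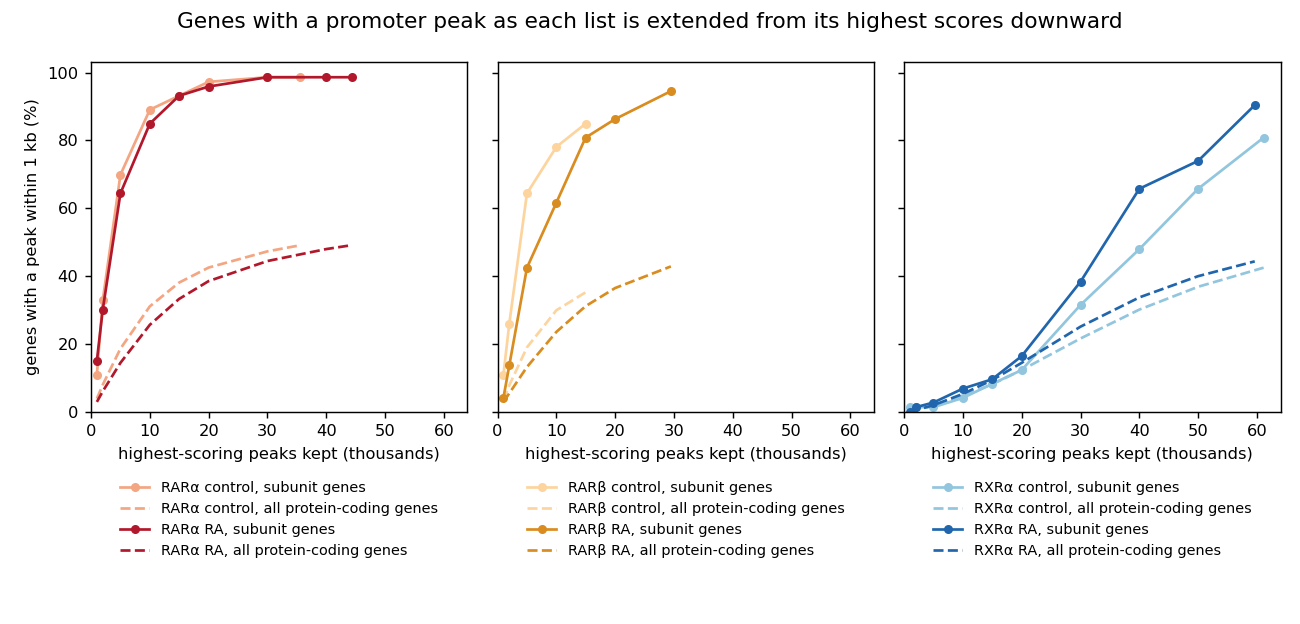
Percentage of genes with a promoter peak (vertical axis) as each list is extended from its highest scores downward (horizontal axis, peaks kept), for subunit genes (solid lines) and all protein-coding genes (dashed lines). With 14968 peaks the subunit genes reach 93.2% in both RARα lists but 8.22% and 9.59% in the RXRα lists, where the solid line leaves the dashed one only among the lower scores.

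The 6 subunit genes with the highest median score rank over the 6 lists were Rps29, Rps19, Rpl7a, Rpl3, Rps7 and Rpl9. Below, the DNA before the start of 7 subunit genes is given 5′ to 3′ on the strand of the gene, from RefSeq on GRCm38.p6, ending with the base before the start. Rps19, Rps7 and Rpl9 are shown for peaks of the highest median rank, and Rps6 for the highest RARα score under RA. Rpl15, Rpl24 and Rps3a1 are shown for a RXRα peak that stayed among the 14968 highest. The latter also held for Rps19 and, under RA, for Rpl9. Rps29, Rpl7a, Rpl3 and Rpl27 met such a condition too but are not shown. Capitals mark the letters of a receptor core hexamer (AGGTCA or GGGTCA), an ETS core (CCGGAA) or a GC box (GGGCGG) on either strand (a match on the other strand reads TGACCT or TGACCC for the hexamers, TTCCGG for the ETS core and CCGCCC for the GC box).
Rps6 (chr4:86857368-86857617, - strand): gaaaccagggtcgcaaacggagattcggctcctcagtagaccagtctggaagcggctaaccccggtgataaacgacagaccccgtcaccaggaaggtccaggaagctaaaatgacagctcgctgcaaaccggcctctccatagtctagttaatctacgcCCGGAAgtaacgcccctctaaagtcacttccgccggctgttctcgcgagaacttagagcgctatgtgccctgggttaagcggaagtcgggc
Rps7 (chr12:28635954-28636203, - strand): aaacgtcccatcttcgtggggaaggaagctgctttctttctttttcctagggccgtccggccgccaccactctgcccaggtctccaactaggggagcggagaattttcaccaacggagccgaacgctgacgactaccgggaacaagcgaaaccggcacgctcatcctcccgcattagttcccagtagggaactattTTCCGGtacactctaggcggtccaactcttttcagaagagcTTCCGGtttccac
Rps19 (chr7:24884342-24884591, + strand): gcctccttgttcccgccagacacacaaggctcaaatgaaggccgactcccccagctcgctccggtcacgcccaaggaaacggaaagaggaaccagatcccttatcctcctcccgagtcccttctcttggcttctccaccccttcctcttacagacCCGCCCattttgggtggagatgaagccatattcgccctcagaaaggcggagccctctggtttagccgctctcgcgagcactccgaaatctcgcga
Rps3a1 (chr3:86142669-86142918, - strand): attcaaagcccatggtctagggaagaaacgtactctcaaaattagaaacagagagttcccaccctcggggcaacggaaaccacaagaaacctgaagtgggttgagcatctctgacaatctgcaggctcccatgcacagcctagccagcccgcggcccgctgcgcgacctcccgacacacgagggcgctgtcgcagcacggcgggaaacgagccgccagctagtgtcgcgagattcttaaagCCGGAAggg
Rpl15 (chr14:18270987-18271236, - strand): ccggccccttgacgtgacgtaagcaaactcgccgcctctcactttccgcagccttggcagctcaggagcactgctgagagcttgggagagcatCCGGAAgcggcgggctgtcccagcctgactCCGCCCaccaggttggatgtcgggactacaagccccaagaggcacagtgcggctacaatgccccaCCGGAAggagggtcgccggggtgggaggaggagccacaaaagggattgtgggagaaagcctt
Rpl9 (chr5:65391432-65391681, - strand): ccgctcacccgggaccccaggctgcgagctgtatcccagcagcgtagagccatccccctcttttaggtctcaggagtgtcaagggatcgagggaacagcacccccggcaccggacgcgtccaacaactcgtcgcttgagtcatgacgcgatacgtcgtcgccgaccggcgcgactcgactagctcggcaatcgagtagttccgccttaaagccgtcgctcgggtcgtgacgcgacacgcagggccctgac
Rpl24 (chr16:55966025-55966274, + strand): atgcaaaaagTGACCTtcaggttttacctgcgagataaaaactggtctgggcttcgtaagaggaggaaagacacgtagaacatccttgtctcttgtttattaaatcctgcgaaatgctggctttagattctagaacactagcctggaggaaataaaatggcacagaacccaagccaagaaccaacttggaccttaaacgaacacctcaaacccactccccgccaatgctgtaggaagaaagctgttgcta

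Of these 7 stretches only that of Rpl24 held a core hexamer, on the other strand and beginning 240 bases before the start. Rps6 held a CCGGAA beginning 91 bases before the start, and Rps7 held it at 54 and 13 bases on the other strand. Rps3a1 held it at 9 bases. Rpl15 held it at 157 and 62 bases and a GC box at 127 bases, Rps19 had a GC box at 95 bases, and Rpl9 had no match to these motifs. A match is a description of the letters and does not show a site.

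Across the 54 subunit genes with a sequence of 250 bases before and 50 bases after the start, 13 (24.1%) held AGGTCA or GGGTCA on either strand, against 25.8% of 17492 promoters of the same length. Direct repeats of these hexamers with 1, 2 or 5 bases between them were in 0 of the 54, and in 26, 7 and 3 of all promoters. CCGGAA was in 27 of the 54 (interval 37.1% to 62.9%), against 19.1% of all promoters, and GGGCGG was in 57.4% against 46.3%. The YY1 motif AAGATGGC was in 9.26% against 3.21%, and TATAAA was in 9.26% against 13.3%. A pyrimidine stretch (CTTTC or CTTTT or CCTTT) within 10 bases of the start on the strand of the gene was in 11 of 54 (20.4%) against 4.57%. The GC content before the start was similar, with a median of 56.8% against 55.2%. The median receptor peak was wider than these windows, and the letters outside them were not searched.

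Rps29 encodes a small protein of the small subunit and had the highest RXRα promoter score of the subunit genes. Its best promoter peak scored 381.44 (control) and 512.87 (RA) for RARα, 289.27 and 285.37 for RARβ, and 1024.47 and 962.11 for RXRα. The corresponding score ranks were 92.4%, 96.9%, 96.4%, 94.4%, 98.8% and 98.2%. The midpoint of the RXRα peak was at -235 and -314 bp from the start, and that of the RARα peak at -4 and -62 bp. Rps29 was thus high in all 6 lists.

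Rps19, the gene most often mutated in Diamond-Blackfan anaemia, had scores of 482.91 and 449.27 for RARα, 565.78 and 599.44 for RARβ, and 376.45 and 485.36 for RXRα, the control value being given before the RA value. In the RARβ lists it ranked at 99.1% and 99.2%, and in the RXRα lists at 84.1% and 89.0%. Rpl7a, whose product lies in the large subunit, had score ranks of 98% and 97.5% for RARα, 95.1% and 95.6% for RARβ, and 51.5% and 66.3% for RXRα. Rpl3, which encodes a protein that reaches toward the peptidyl transferase centre, ranked at 99.3% and 99.6% for RARα, 94.8% and 95.7% for RARβ, and 60.0% and 60.7% for RXRα. For Rps7 the ranks were 95.4%, 97.9%, 94.0%, 95.8%, 46.8% and 44.1%, in the same order of lists. For Rpl9 they were 96.9%, 97.8%, 94.0%, 92.7%, 67.5% and 77.9%. Rpl9 shares its upstream region with Lias, which starts 66 bp away on the other strand, and Rpl7a with Med22 at 165 bp, so peaks there cannot be told apart between the neighbours. In the last 4 genes the RAR peaks stood higher in their lists than the RXRα peaks. These genes were picked by a median over lists that are mostly RAR lists. The choice itself thus favours high RAR ranks, and nothing is concluded from this order.

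Rps6, whose protein is a substrate of the S6 kinases described below, had the highest RARα score of the subunit genes under RA. Its scores were 649.48 and 853.81 for RARα, 165.14 and 155.22 for RARβ, and 80.54 and 101.24 for RXRα. The RARα peak ranked at 98.8% and 99.6%, whereas the RXRα peak ranked at 24.9% and 34.7%. Rpl5 and Rpl11, whose proteins bind the ubiquitin ligase Mdm2 when ribosome assembly is disturbed, had RARα ranks of 82.9% and 94.2%, and of 94.5% and 94.4%. Their RXRα ranks were 46.3% and 47.4%, and 43.4% and 51.1%. Rps14, a small subunit gene that is lost in a form of myelodysplastic syndrome, ranked at 87.0% and 89.9% for RARα, 41.5% and 51.8% for RARβ, and 10.9% and 45.8% for RXRα. Rps27a, which is translated as a fusion with ubiquitin, ranked at 88.7% and 77.7% for RARα, 75.4% and 84.4% for RARβ, and 26.7% and 47.6% for RXRα. In these 5 genes the RARα rank was above the RXRα rank under each diet.

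Rpl17 was the subunit gene with no promoter peak in any list. The nearest high peak lay inside the gene, with midpoints 1539 and 1535 bp past the start in the RARα lists and score ranks of 95.2% and 98.5%. The start of Rpl17 was taken from its outermost span, because the RefSeq promoter table used here has no entry for it.

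**Figure D4:**
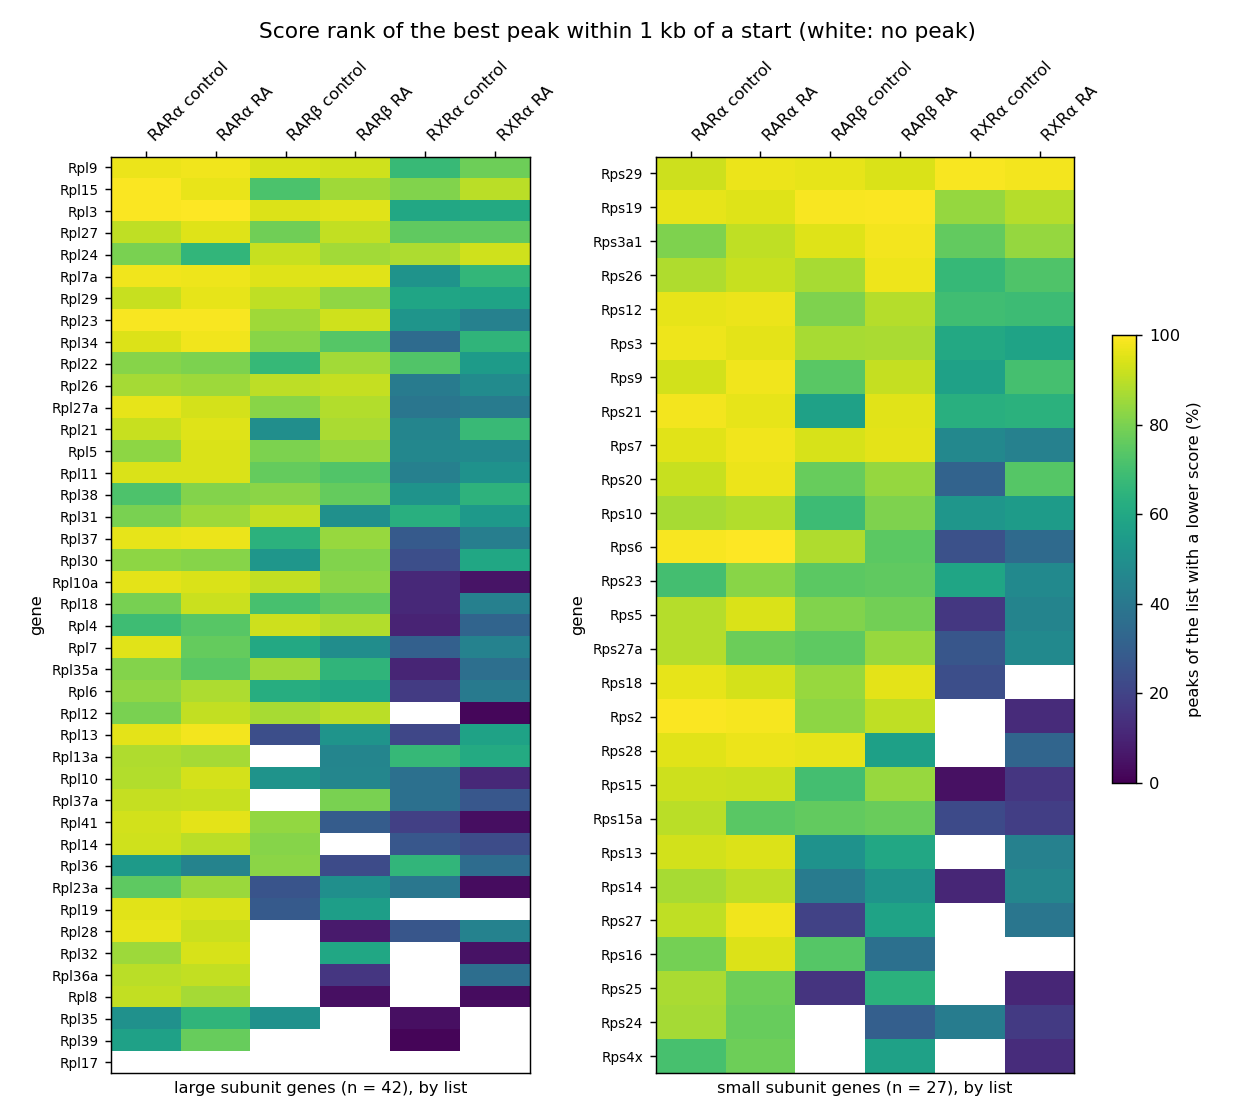
Score rank of the best promoter peak (colour, percentage of the peaks of the list with a lower score) of 42 large and 27 small subunit genes (rows) in the 6 lists (columns), ordered by the mean over lists with an absent peak taken as 0. White cells have no promoter peak; most of them are in the RARβ control and RXRα control columns, and the row of Rpl17 is white throughout.

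The peaks of the 3 receptors were gathered at the start. For RARα the median position of the midpoint over subunit genes was 3.5 and 0.5 bp past the start under the control diet and RA, and 87.5% and 91.7% of the midpoints lay within 250 bp of the start, against 80.4% and 81.2% over all genes with such a peak. For RARβ the median position was -15.5 and -23 bp, that is, before the start. For RXRα it was -100 and -56 bp, against -52 and -45 bp over all genes. At genes with both peaks the RARα midpoint was downstream of the RXRα midpoint at 48 of 59 subunit genes (81.4%) under the control diet and at 48 of 66 (72.7%) under RA, and over all genes at 60.0% and 56.6%. The median width of the best promoter peak was 931 and 803.5 bp for RARα, 636 and 848 bp for RARβ, and 591 and 711.5 bp for RXRα, so the differences in position were smaller than the peaks.

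**Figure D5:**
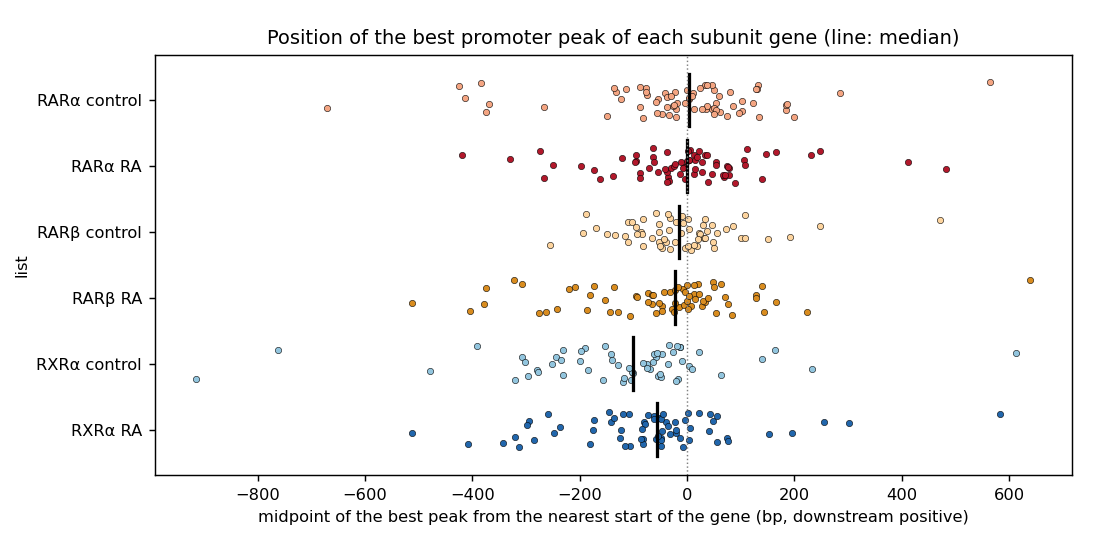
Midpoint of the best promoter peak of each subunit gene relative to its start (horizontal axis, bp, downstream positive) in the 6 lists (rows), with 1 point per gene and the median as a line. Medians lie at 3.5 and 0.5 bp for RARα and at -100 and -56 bp for RXRα.

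Receptors combined at most subunit genes. Promoter peaks of all 3 receptors were found at 53 of 73 subunit genes under the control diet (72.6%) and at 65 under RA (89.0%), against 29.2% and 36.7% of all protein-coding genes. RARα and RARβ without RXRα occurred at 9 subunit genes under the control diet, among them Rpl12, Rpl19, Rps13, Rps16, Rps2, Rps25, Rps27 and Rps28, and at 4 under RA, among them Rpl19, Rps16 and Rps18. RARα and RXRα without RARβ occurred at 6, among them Rpl13a, Rpl28, Rpl37a, Rpl39 and Rps24, and under RA at Rpl14. RARα stood alone at 4 subunit genes under the control diet (Rpl32, Rpl36a, Rpl8 and Rps4x) and at 2 under RA (Rpl35 and Rpl39). Under the control diet these 3 combinations took 12.3%, 8.22% and 5.48% of the subunit genes, against 4.56%, 9.48% and 5.86% of all genes. Under RA they took 5.48%, 1.37% and 2.74%, against 3.90%, 4.08% and 4.47%, so that several were near or below the background.

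The same peaks were shared between receptors when an overlap of at least 25% of the width of each was required. Of the RARα promoter peaks of members, 64 of 88 (72.7%, 62.6% to 80.9%) overlapped a RXRα peak under the control diet and 77 of 91 (84.6%, 75.8% to 90.6%) under RA. For RARβ these were 59 of 73 (80.8%) and 72 of 79 (91.1%). Over all genes the 4 shares were 74.7%, 78.2%, 79.8% and 86.8%. With the 14968 highest-scoring peaks of each list, the members' shares fell to between 9.09% and 12.1%, so the sharing rests on RXRα peaks of lower score. This need not be particular to the members. Over all genes, the share with a RXRα promoter peak also fell with this cut, from 42.5% and 44.4% to 8.11% and 9.35%. The sharing over all genes at this length is not given here.

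Between the diets, the set of subunit genes with a RARα promoter peak was the same. All 72 genes had a RARα promoter peak under both diets, and each of the 88 RARα promoter peaks of members in the control list overlapped a peak of the RA list by at least 25% of each width (over all genes 92.7%). The RARα score rank was higher under RA at 42 of 72 subunit genes, with a median change of 0.87 percentage points, against -0.62 over all genes. The changes ran from -19.4 to 19.8 points.

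For RARβ, 60 subunit genes had a promoter peak under both diets, 2 under the control diet alone and 9 under RA alone, whereas over all genes these numbers were 6992, 594 and 2238. The RARβ list under RA was also the longer. The control peaks without a counterpart were at Rpl14, with a score of 136.15 and a rank of 82.0%, and at Rpl35, with 77.03 and 50.7%. Among the 9 under RA alone, the highest rank was that of Rpl37a, with a score of 172.9 and a rank of 80.0%. Others included Rpl32 (59.6%), Rps4x (57.4%) and Rpl13a (45.3%). The lowest was Rpl8, with a rank of 4.12% and a score of 52.39, close to the lowest score of the list, 50. Of the RARβ promoter peaks of members in the control list, 67 of 73 (91.8%, 83.2% to 96.2%) overlapped a peak of the RA list. The median change of the RARβ rank was 2.38 points over 60 subunit genes and 3.13 over all genes.

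For RXRα, 55 subunit genes had a promoter peak under both diets, 4 under the control diet alone and 11 under RA alone, although the RA list was the shorter. Over all genes the numbers were 8340, 810 and 1213. The peaks present under 1 diet were low in their list. Those under the control diet alone included Rps18 (24.1%), Rpl35 (4.23%) and Rpl39 (1.35%), and the highest under RA alone were at Rps13 (44.1%), Rps27 (39.4%), Rpl36a (35.9%), Rps28 (32.6%) and Rps4x (12.6%). The scores of Rpl35 and Rpl39, 54.42 and 51.31, were close to the lowest score of the list, 50. Of 78 RXRα promoter peaks of members under RA, 66 (84.6%, 75% to 91.0%) overlapped a peak of the control list, against 83.8% over all genes. The median change of the RXRα rank was 5.43 points over 55 subunit genes, from -36.2 to 41.9, and 2.36 over all genes.

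The 7 genes of ribosomal proteins that do not follow the symbol pattern gave a similar picture. They included Rpsa of the small subunit, Rplp0, Rplp1 and Rplp2 of the stalk of the large subunit, Fau, which is made as a fusion with a protein like ubiquitin, and the scaffold Rack1. All 7 had RARα and RARβ promoter peaks under both diets. The background over all genes was 49.1% and 49.1% for RARα, and 35.2% and 42.9% for RARβ. A RXRα promoter peak was at 5 and 6 of the 7, against 42.5% and 44.4%. The interval of the RXRα share held the background under the control diet (35.9% to 91.8%) but not under RA (48.7% to 97.4%). Rplp0 ranked at 95.1% and 98.4% for RARα, 92.8% and 98.5% for RARβ, and 35.6% and 30.0% for RXRα. Rack1 had the highest RXRα ranks of the 7, at 76.9% and 75.7%.

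Of the 13 paralogs or like genes, 5 and 6 had a RARα promoter peak, 3 and 4 a RARβ promoter peak and 5 and 5 a RXRα promoter peak. These shares, 38.5% and 46.2%, 23.1% and 30.8%, and 38.5% and 38.5%, were below the backgrounds over all genes given above in each list. With only 13 genes, however, the interval of the share held the background in every list. Rpl36al, a paralog of Rpl36a, ranked at 99.4% and 98.4% for RARα and 95.4% and 96.8% for RARβ, and had no RXRα promoter peak. Its neighbour Mgat2 starts 91 bp away on the other strand. Rpl22l1 and Rps27l, paralogs of Rpl22 and Rps27, had a promoter peak in all 6 lists, with RARα ranks of 96.9% and 94.8%, and of 97.1% and 98.8%. Rpl7l1 had RARα ranks of 94.1% and 95.2% and no RARβ promoter peak under the control diet. Rpl34-ps1 had RARα promoter peaks alone, at 77.1% and 67.5%, with midpoints 766 and 793 bp past the start. Rpl32l had only RXRα promoter peaks, at 33.6% and 38.5%. Rps23rg1 had RXRα promoter peaks at 58.1% and 37.8%, and a RARα peak under RA at 0.305%, close to the lowest of the list. Rpl3l, known from striated muscle, Rpl10l and Rpl39l, known from testis, and Rpl37rt, Rps27rt and Rpl31-ps12 had no promoter peak in any list.

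The copies that were annotated as ribosomal protein pseudogenes by their symbol were mostly free of peaks. The symbol had to begin with Rpl or Rps and a digit and contain -ps. Any copy under another kind of symbol would count among the other pseudogenes. Of 303 such loci, 4 and 7 contained the midpoint of a RARα peak, 0 and 0 that of a RARβ peak (a count of 0, taken as at most 3 of 303 loci, allows a share of up to 0.990%, and the Wilson upper limit is 1.25%), and 8 and 8 that of a RXRα peak. These shares ran from 0% to 2.64%. Among 10126 other pseudogenes, which are longer with a median of 943.5 against 526 bp, they ran from 1.30% to 5.16%. Of the spans of the 73 subunit genes, which are longer again with a median of 3164 bp, 73 and 73 held a RARα midpoint, 63 and 69 a RARβ midpoint, and 56 and 68 a RXRα midpoint. The study speaks of uniquely mapped reads, and a read that matches several copies equally well does not map uniquely. The aligner's setting is not given in the sources used here, and its part in these counts was not tested.

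The 10 kinase or kinase-like genes carry the name of ribosomal protein S6 but act in signalling. RARα promoter peaks were found at 8 and 8, RARβ at 7 and 4, and RXRα at 5 and 6, against backgrounds of 49.1% and 49.1%, 35.2% and 42.9%, and 42.5% and 44.4%. In 10 genes, the RARβ count under RA and the RXRα counts were near these. The interval of the RARα share, 49.0% to 94.3% under either diet, also held its background. With the outermost start of each gene, Rps6ka2, Rps6ka4 and Rps6kc1 had no RARα promoter peak under either diet. Rps6kb1 and Rps6kb2, the S6 kinases that act below mTOR, had a promoter peak in all 6 lists, with RARα ranks of 95.8% and 89.6%, and of 36.2% and 88.4%. Rps6ka5, a kinase of histone H3, was the highest of the kinases in every list except the RARα control list, with ranks of 94.3% and 95.7% for RARα, 96.9% and 97.8% for RARβ, and 76.8% and 78.7% for RXRα. Its relative Rps6ka4 had RARα ranks of 77.7% and 60.4%, a RARβ rank of 19.2% under the control diet and no RXRα promoter peak. Of the kinases downstream of ERK, Rps6ka1 ranked at 35.0% and 46.6% for RARα, Rps6ka2 at 46.3% and 50.9%, and Rps6ka3 at 64.3% and 27.9%, whereas Rps6ka6 had no promoter peak in any list. The RARβ rank of Rps6ka2 was 16.4% under the control diet and 91.8% under RA. The kinase-like Rps6kc1 had RARα ranks of 71.3% and 63.0% and RXRα ranks of 47.2% and 54.6%, without RARβ. Rps6kl1 had a single promoter peak, for RARβ under the control diet, at 36.6%. The binding protein gene Rps19bp1 had a promoter peak in all 6 lists, and its RARα rank was 66.4% under the control diet and 95.4% under RA. Its RARβ rank was 28.4% and 87.4%, and its RXRα rank 56.6% and 60.0%.

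Peaks at 1 to 10 kb are described here only where no start of another gene was nearer than that of the subunit gene. The highest RXRα peak of this kind lay upstream of Rps26, at chr10:128635479-128636304 under the control diet and chr10:128635604-128636347 under RA (mm10). It scored 688.38 and 686.28, which ranked at 95.6% and 95.1%, and its midpoint was at -9385 and -9469 bp from the start. A RARβ peak was at the same place under the control diet, with a score of 103.28 and a rank of 69.8%. Rpl27a had a RXRα peak 6922 bp past its start that ranked at 89.5% under the control diet. For RARβ under the control diet, the highest peak of this kind was 6951 bp past the start of Rps28 and ranked at 92.9%. Under RA a peak there, at 6994 bp, ranked at 68.2%, below a peak 5782 bp past the start of Rpl14 that ranked at 76.6%.

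The subunit genes also shared features that the choice by symbol did not use. They lay on 19 chromosomes and had a median span of 3164 bp, from 982 to 11774 bp, against 17261.5 bp over all protein-coding genes. A gene for a small nucleolar RNA lay within the span of 28 of 73 (38.4%), 55 such genes in all, against 1.71% of all protein-coding genes. The start of another gene on the other strand lay within 1 kb at 14 of 73 (19.2%), and at 2155 of all 21536 genes. How the short spans and the sequence of these genes bear on the peak lists was not tested.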

How the data were processed

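ChIP-seq peaks of RARα, RARβ and RXRα from mouse liver under 2 diets were analysed in 6 lists. The authors aligned the reads with Bowtie to mm10 after base calling with CASAVA 1.4 (per the labels' processing notes) and called peaks per library with MACS. The deposited score of a peak is -10 times the log10 of its p-value, and no list holds a score under 50. A total chromatin (input) library was not analysed here on its own. Peak midpoints were assigned to every start of a gene within 1 kb or 10 kb. Starts came from RefSeq promoters of GRCm38.p6 (17492 genes, 75 of the members). For the other genes the outermost start of the RefSeq span was used, with the strand from GENCODE M1 (4044 genes, 22 of the members), and 351 genes without a strand were left out. Coordinates are 1-based on mm10. An overlap of 25% of each peak's width marked a shared peak. Samples were grouped by antibody and diet from the labels.

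Named with values were the kinase, paralog and binding-protein genes, the 6 subunit genes of highest median score rank among those in all 6 lists, subunit genes without a promoter peak, up to 5 subunit genes per receptor with a promoter peak under 1 diet, Rps6, Rpl5, Rpl11, Rps14, Rps19 and Rps27a, and the genes outside the symbol pattern. Rps26, Rpl27a and Rps28 were added after their values were seen. A few genes are counted but not reported by name here. Members and gene lists were chosen with earlier results of these data known. With 1 library per group no test was made. Shares have Wilson 95% intervals. The assignment and overlap steps were tested on simulated data. Python 3.11.15, pandas 2.3.3, numpy 2.4.6, scipy 1.17.1 and matplotlib 3.10.9 were used. Alternatives were a score of at least 100, lists of equal length, any base of a peak, the nearest start, the subunit genes alone, other overlaps and, chosen after seeing the data, the outermost start of each gene.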

Additional observations from a re-analysis of the deposited data

How the results depend on the processing

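Of 155 values under alternative settings, 132 stayed within 1.5 times the main count or within the interval of the main value, and 23 moved. With a score of at least 100, RXRα promoter peaks under the control diet were at 41 members, and all 6 lists held 25. The RXRα share between diets was then 63.8%. The share of RARα promoter peaks in RXRα peaks was 45.2% (control) and 66.3% (RA), and that of RARβ was 54.9% and 73.8%. With lists of equal length, RXRα peaks lay within 10 kb of 19 and 17 members and within 1 kb of 8 and 8, and 6 members were in all 6 lists. The RARα share between diets was 94.9%. The share in RXRα peaks was 10.1% and 9.09% for RARα, and 11.0% and 12.1% for RARβ. With an overlap of 50% of each width, the share between diets was 95.5% for RARα, and it was 82.2% and 74.4% for RARβ and RXRα, and the RARα share in RXRα peaks was 52.3% and 72.5%. Among bases before the start alone, AAGATGGC was in 3.70% of subunit promoters. These alternatives remove peaks, overlaps or bases by construction. None of the 30 alternative values of the median score rank moved by this criterion, which is wide for ranks. With a score of at least 100, the median RXRα rank of members was 58.1% (control) and 54.6% (RA). In the main setting it was 41.7% and 46.6%. These ranks were still taken in the whole lists, while members with lower scores dropped out, so the medians could only rise. The median over all genes at that setting is not given here. The outermost start, added after seeing the data, moved 0 of 26 values. It removed promoter peaks of some genes whose span begins far outside the RefSeq start, such as Rpl19, Rps2 and the kinase gene Rps6ka2. No paired analysis was possible because each group holds 1 library. The depth of each single library is not known, which limits every comparison between lists.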
